A study of Homo sapiens with 8 samples.

Results

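The genes described here are 38 genes of the NRF2 antioxidant response, of glutathione and thioredoxin metabolism and of peroxide and superoxide removal. They were followed in DLD1, a human colorectal adenocarcinoma cell line, after depletion of PPA2, the inorganic pyrophosphatase that splits pyrophosphate inside mitochondria. The genes were chosen by name, and all 38 matched a symbol exactly in both deposited expression tables, which hold 60234 genes for normoxia and 60612 genes for hypoxia. The 8 libraries of polyadenylated RNA form 4 groups of 2. These are cells with a short hairpin RNA against PPA2 kept under normoxia, cells with a control hairpin (genotype label WT) kept under normoxia, cells with the PPA2 hairpin kept under hypoxia, and cells with the control hairpin kept under hypoxia, each collected after 12 h. The labels name 1 PPA2 hairpin, so other effects of that hairpin cannot be told apart from the loss of PPA2. Whether the libraries of a group came from separate cultures is not stated, and the p-values cover no more than the spread among these libraries, which may be technical.

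NRF2, the product of NFE2L2, is a transcription factor that KEAP1 holds in the cytoplasm and marks for degradation. Oxidants and electrophiles release it, and it then binds antioxidant response elements together with a small MAF protein and raises the transcription of genes for glutathione synthesis, thioredoxin, NADPH supply, detoxification and drug efflux. Peroxiredoxins, glutathione peroxidases and catalase remove peroxides, and superoxide dismutases turn superoxide into the hydrogen peroxide on which they act. DLD1 cells are of colonic epithelial origin, a tissue whose detoxification enzymes are known targets of this pathway.

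PPA2 itself checks the labels. It had 5.88 and 5.74 RPKM (reads per kilobase, scaled to sequencing depth) in the PPA2-hairpin libraries under normoxia, against 79.8 and 84.1 RPKM in the control libraries. In the hypoxia table it had 9.85 and 9.0 FPKM (the same unit counted in fragments) in the PPA2-hairpin libraries, against 65.5 and 50.8 FPKM in the control libraries. The knockdown was therefore 12.2-fold under normoxia and 5.64-fold under hypoxia on the scale of value + 1, and its extent differed between the oxygen levels (difference of log2 fold changes 1.11, limma adjusted p = 0.00034). Of 9 colon epithelium markers, 7 had a mean of at least 1 in PPA2-hairpin cells under normoxia and 8 in each other group, with summed levels of 3180 to 4030. CDX1 was near 0 in every library. None of the 9 markers of other cell types (8 matched in the normoxia table) reached a mean of 1, and their summed levels were 0.611 to 0.621 RPKM in PPA2-hairpin libraries and 0.357 to 0.378 RPKM in control libraries under normoxia. Under hypoxia these sums were 1.37 to 1.90 FPKM in PPA2-hairpin libraries and 0.714 to 0.835 FPKM in control libraries, and their part in the results was not tested. Of 6 genes known to rise in low oxygen, ADM, ANKRD37, NDRG1, EGLN3 and VEGFA had higher values in the hypoxia table than in the normoxia table in both PPA2-hairpin and control cells. The tables were normalized separately, so this is only described. VEGFA was close in control libraries, with 134 and 144 FPKM under hypoxia and 125 and 108 RPKM under normoxia. Under normoxia these genes were lower in PPA2-hairpin cells than in control cells (log2 fold changes −2.29 to −1.16). ADM had 61.2 and 63.7 FPKM in PPA2-hairpin libraries and 202 and 185 FPKM in control libraries under hypoxia, and 10.9 and 12.9 RPKM in PPA2-hairpin libraries and 42.9 and 39.6 RPKM in control libraries under normoxia, while CA9 had 3.11 and 3.5 FPKM in PPA2-hairpin libraries under hypoxia and was under 1 in all other libraries. Mitochondrial genome genes took 12.1% and 11.4% of the summed values in PPA2-hairpin libraries and 11.2% and 10.7% in control libraries under normoxia, and 12.5% and 12.4% in PPA2-hairpin libraries and 8.4% and 7.6% in control libraries under hypoxia. The normoxia values stepped by whole reads at estimated depths of 35735957 and 30725480 reads in PPA2-hairpin libraries and 28004663 and 35722660 reads in control libraries, while the hypoxia values gave no depth.

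Under normoxia, PPA2-hairpin cells had less RNA of NQO1, UGDH and SLC7A11 and more of the efflux pump ABCC3, and smaller differences in most other members. Under hypoxia the falls were largest in GPX1, NQO1 and TXN, while OSGIN1, AKR1C3, SRXN1, KEAP1 and GCLM rose. A gene was tested where the mean over the fitted libraries was at least 1, and called at a limma adjusted p under 0.05. In each comparison 33 of the 38 members were tested, all with a mean of at least 1 in both groups. Under normoxia 12 members fell and 1 rose, which is 39.4% of those tested, where 34.2% of all 14090 tested genes were called (11.7% fell and 22.5% rose). Under hypoxia 17 members fell and 9 rose, 78.8% of those tested, where 58.4% of all 13080 tested genes were called (33.8% fell and 24.6% rose). The median log2 fold change of the members was −0.155 under normoxia and −0.239 under hypoxia, beside 0.066 and −0.064 over all tested genes. In bulk libraries, fewer cells that express a gene and less RNA per cell cannot be told apart.

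How the libraries are scaled bears on the falls in both tables. With the mitochondrial genome genes left out and each library rescaled to the same sum, the median of all genes under hypoxia moved up by 0.194, and 8 of the 17 falls held, against 9 of the 9 rises. Relative to that median, the members' median was −0.178, beside −0.175 as deposited. The share of rises among all calls under hypoxia was 42.2% as deposited, 61.6% on that scale and 49.2% with median-of-ratios scaling. Under normoxia 9 of the 12 falls held on both other scales, and NFE2L2, GCLM and GSS lost their call without mitochondrial genome genes. With median-of-ratios scaling GCLC, GSR, ME1, GPX1, PRDX4, SOD1 and CAT were also called lower under normoxia (adjusted p = 0.0175 to 0.0328), and without mitochondrial genome genes MGST1 was called higher (0.0256). The share of rises under normoxia was 65.7% as deposited, 76.5% without the mitochondrial genome genes and 48.6% with median-of-ratios scaling. The libraries of both groups did not overlap for 26 of 33 members under normoxia and 30 of 33 under hypoxia, beside 70.5% and 80.4% of all tested genes.

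**Figure D1:**
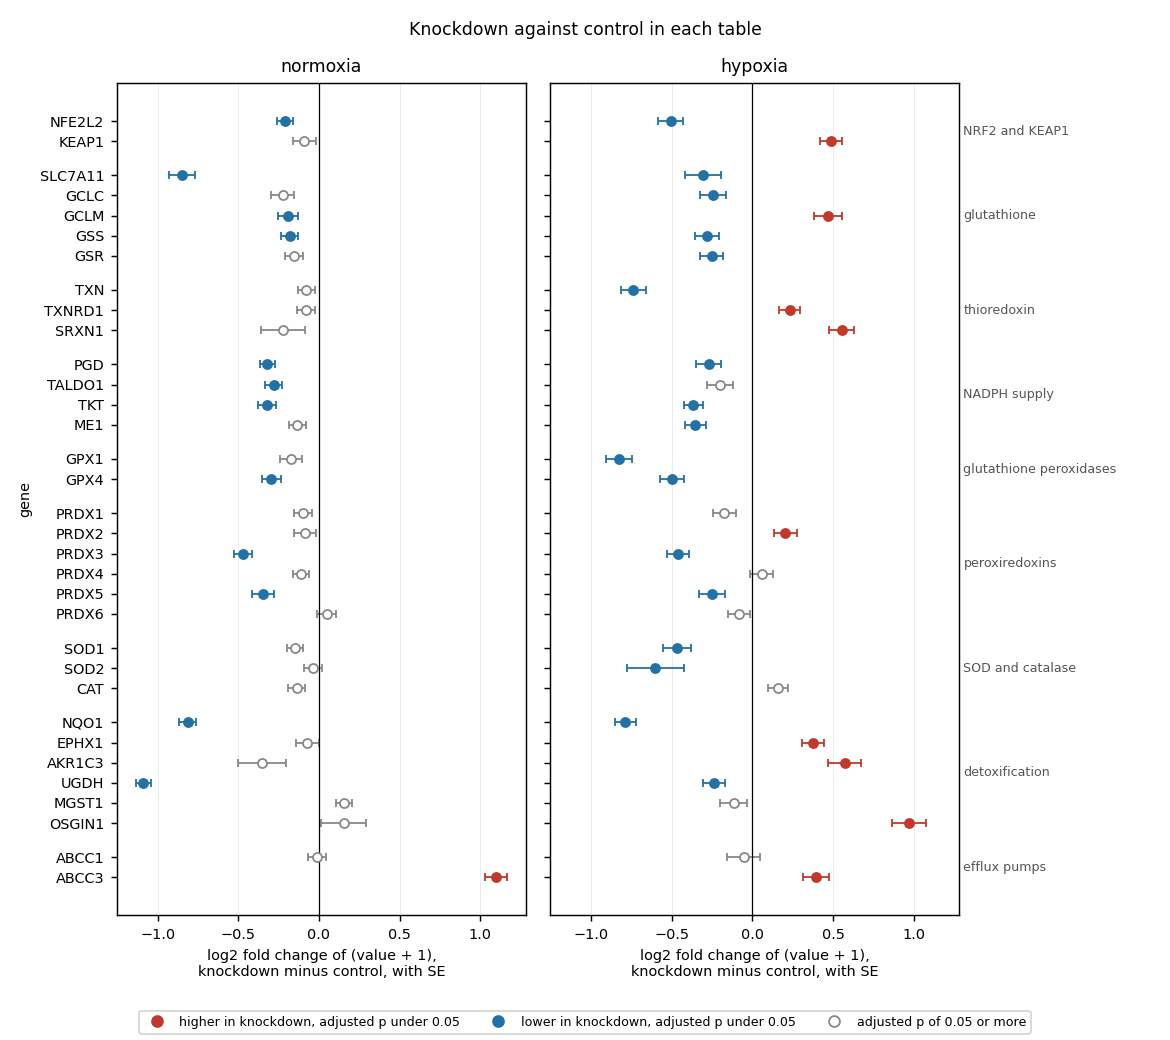
Log2 fold change of (value + 1), PPA2 hairpin minus control hairpin, for the 33 tested members under normoxia (left) and hypoxia (right), grouped by role. Points are estimates from 2 libraries a group, bars are the standard error, red marks rises and blue falls at a limma adjusted p under 0.05, and open points were not called. UGDH lies lowest under normoxia at −1.09 and OSGIN1 highest under hypoxia at 0.97.

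The response differed between the oxygen levels for 16 of the 33 members (48.5%) by the interaction term over all 8 libraries, where 42.4% of 13585 tested genes were called. Each response is taken within its own table, and the difference is hypoxia minus normoxia. Each oxygen level has a table of its own, in other units. In these differences, oxygen and the way each table was made therefore cannot be told apart. It was above 0 for 11 members (33.3%) and below 0 for 5 (15.2%), beside 13.4% and 29% of all tested genes. On all genes, 31.5% of those calls were above 0 as deposited, 47.9% without mitochondrial genome genes and 49.7% with median-of-ratios scaling, which moved the median of all genes up by 0.114 and 0.123. All 11 members above 0 and 3 of the 5 below 0 held on both scales. NFE2L2, SLC7A11, GSS, PGD, TKT, GPX4, PRDX3, PRDX5, NQO1 and UGDH fell at both oxygen levels, ABCC3 rose at both, and GCLM fell under normoxia and rose under hypoxia. Of these, TKT, PRDX3, NQO1 and ABCC3 kept both calls in every alternative setting tried, and each of the others lost a call in some setting. Another 7 members fell under hypoxia without a call under normoxia, 7 rose there without one, and PRDX1, PRDX4, PRDX6, CAT, MGST1 and ABCC1 were called at neither as deposited. More of all tested genes were called under hypoxia (58.4%) than under normoxia (34.2%). Pairs of calls were not counted over all genes, so these counts do not set the members apart from other genes.

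**Figure D2:**
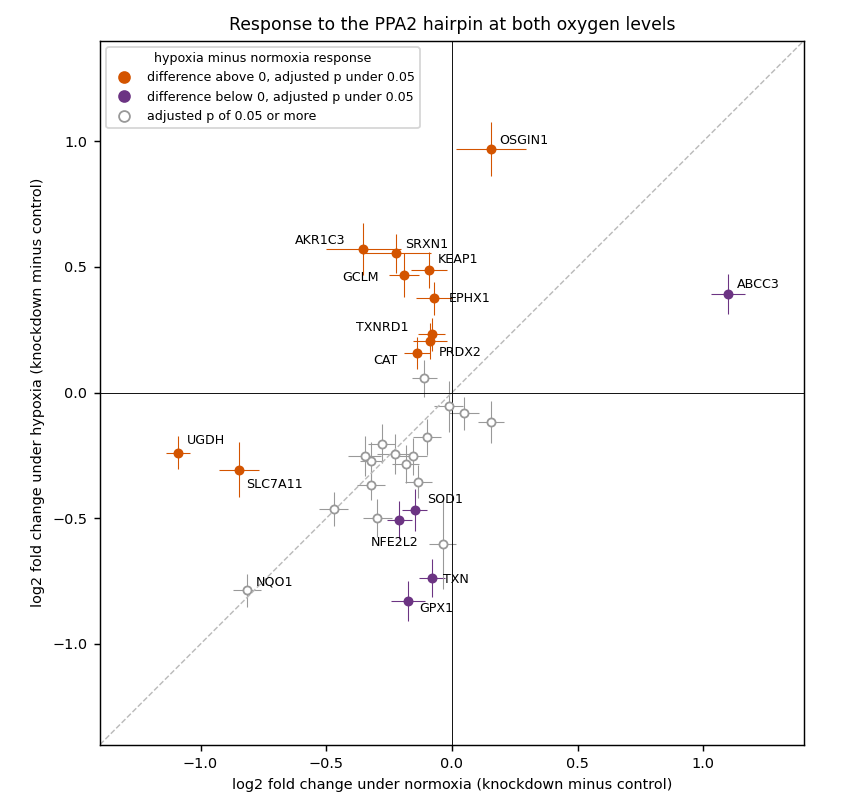
Log2 fold change of the 33 tested members under normoxia (horizontal axis) and under hypoxia (vertical axis), PPA2 hairpin minus control hairpin, with standard errors. Orange points differ between the oxygen levels with a difference above 0, purple points with a difference below 0 (interaction term, limma adjusted p under 0.05), and the dashed line marks equal responses. NQO1 lies on that line, while UGDH, SLC7A11, OSGIN1 and AKR1C3 lie above it and ABCC3, TXN and GPX1 below it.

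The start-site windows of the members were searched for the core of the antioxidant response element, to show which of them carry its letters. Windows of 300 bases, 250 before the annotated start and the rest from it on, came from RefSeq (GRCh38.p14), and 29 of the 38 members had at least 1. The core was searched as TGACNNNGC on both strands, and AP-1 elements, which can overlap it, as TGANTCA. The core was in a window of 8 of the 29 members (27.6%), beside 16.1% of 27305 genes. A gene with more windows has more places to hold it, and the number of windows per gene was not matched. Counted by window instead of by gene, it was in 13.3% of all 35116 windows of that length. AP-1 letters were in windows of 2 of the 29 members (6.9%), beside 9.37% of genes. The windows below belong to 4 members that rose under hypoxia (GCLM, KEAP1, TXNRD1 and EPHX1) and 2 that fell there (PGD and ME1), printed 5′ to 3′ on the gene's strand with the core in capitals. GCLM is at chr1:93909381-93909680 (minus strand, core at position −34 from the start), KEAP1 at chr19:10502722-10503021 (minus strand, −54 and −31) and EPHX1 at chr1:225825104-225825403 (plus strand, −78). KEAP1 also has a window without the core (chr19:10503307-10503606). EPHX1 has others without it, chr1:225809874-225810173 and chr1:225823961-225824260. TXNRD1 has a core in both its windows, chr12:104215529-104215828 (plus strand, −99 and −8) and chr12:104286782-104287081 (−102). PGD is at chr1:10398814-10399113 (plus strand, −201) and ME1 at chr6:83431002-83431301 (minus strand, −137 and 12), and the core at −137 of ME1 overlaps an AP-1 element.
GCLM: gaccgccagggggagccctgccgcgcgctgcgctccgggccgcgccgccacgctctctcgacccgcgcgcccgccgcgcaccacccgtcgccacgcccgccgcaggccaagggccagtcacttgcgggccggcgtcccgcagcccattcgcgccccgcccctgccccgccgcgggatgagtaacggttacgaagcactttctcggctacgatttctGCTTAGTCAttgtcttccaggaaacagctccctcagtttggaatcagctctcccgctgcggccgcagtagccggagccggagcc
KEAP1: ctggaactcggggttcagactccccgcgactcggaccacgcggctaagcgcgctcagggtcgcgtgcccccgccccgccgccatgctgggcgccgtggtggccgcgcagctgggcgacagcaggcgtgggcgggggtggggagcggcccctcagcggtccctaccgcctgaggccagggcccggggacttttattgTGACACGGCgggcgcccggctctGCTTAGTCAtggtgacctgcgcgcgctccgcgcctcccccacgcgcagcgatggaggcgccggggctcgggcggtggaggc
TXNRD1 upstream window: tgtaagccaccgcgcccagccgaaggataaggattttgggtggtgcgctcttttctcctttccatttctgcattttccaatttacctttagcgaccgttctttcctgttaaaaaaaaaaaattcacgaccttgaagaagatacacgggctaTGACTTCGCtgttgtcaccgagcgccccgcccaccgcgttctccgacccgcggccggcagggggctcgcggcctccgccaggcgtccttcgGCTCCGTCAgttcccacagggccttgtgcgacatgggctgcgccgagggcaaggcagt
TXNRD1 downstream window: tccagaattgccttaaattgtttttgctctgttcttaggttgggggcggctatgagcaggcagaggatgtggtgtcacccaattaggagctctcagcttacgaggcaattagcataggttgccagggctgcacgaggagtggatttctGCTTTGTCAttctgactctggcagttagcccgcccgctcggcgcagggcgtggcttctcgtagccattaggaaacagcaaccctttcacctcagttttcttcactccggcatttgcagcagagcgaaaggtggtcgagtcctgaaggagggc
EPHX1: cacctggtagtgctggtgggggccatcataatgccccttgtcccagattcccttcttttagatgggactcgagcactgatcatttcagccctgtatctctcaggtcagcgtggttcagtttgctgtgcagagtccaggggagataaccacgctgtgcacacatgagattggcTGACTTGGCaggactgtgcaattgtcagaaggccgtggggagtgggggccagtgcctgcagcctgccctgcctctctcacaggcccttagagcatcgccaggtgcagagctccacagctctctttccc
PGD: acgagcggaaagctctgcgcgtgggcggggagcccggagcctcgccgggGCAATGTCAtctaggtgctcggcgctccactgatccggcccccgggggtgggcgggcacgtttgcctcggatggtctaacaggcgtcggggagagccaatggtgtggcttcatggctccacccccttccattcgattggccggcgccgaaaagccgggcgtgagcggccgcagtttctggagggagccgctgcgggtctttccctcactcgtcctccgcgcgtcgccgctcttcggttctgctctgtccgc
ME1: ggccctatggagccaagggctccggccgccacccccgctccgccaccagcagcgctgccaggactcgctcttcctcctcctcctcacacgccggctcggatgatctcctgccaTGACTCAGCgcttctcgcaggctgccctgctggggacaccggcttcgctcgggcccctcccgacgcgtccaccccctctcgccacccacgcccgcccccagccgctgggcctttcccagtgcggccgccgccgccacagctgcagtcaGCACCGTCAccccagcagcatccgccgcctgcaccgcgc
GPX2 and MGST1 also hold the core, MGST1 at chr12:16346865-16347164 and not in its other windows. Under hypoxia, 4 of the 7 tested members with the core rose and 2 fell. Of the 18 tested members with windows but no core, 4 rose and 11 fell. Among all tested genes, 24.6% rose and 33.8% fell. A match describes letters only, and its part in any response was not tested. Bases outside these windows were not searched, so a member without a match may carry the element elsewhere.

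The regulators come first. NFE2L2 (chromosome 2, 177227595 to 177392697, minus strand, GRCh38) had 41.2 and 42.0 RPKM in PPA2-hairpin libraries, against 47.8 and 48.6 RPKM in control libraries under normoxia. At low oxygen it had 30.5 and 31.7 FPKM in PPA2-hairpin libraries, against 42.2 and 47.2 FPKM in control libraries. The PPA2-hairpin libraries were the lower ones at both oxygen levels, without overlap. The fall was −0.21 ± 0.050 (SE) on the log2 scale under normoxia (adjusted p = 0.0209) and −0.51 ± 0.076 under hypoxia (adjusted p = 0.00138), and it was deeper under hypoxia (difference −0.30, adjusted p = 0.0263). Without control replicate 1 or 2 the normoxia call was lost (adjusted p = 0.123 and 0.167), and likewise without mitochondrial genome genes (0.0605), without a filter on low values (0.0529) and without a trend (0.0589). The difference was lost when any control library or knockdown replicate 2 was left out under normoxia, or any knockdown library under hypoxia (adjusted p = 0.053 to 0.092), and on both other scales (0.254 and 0.181). KEAP1 (chromosome 19, 10486125 to 10503558, minus strand), the inhibitor of NRF2, had 35.1 and 31.0 RPKM in PPA2-hairpin libraries and 35.8 and 34.7 RPKM in control libraries under normoxia, where the groups overlapped (adjusted p = 0.348). Its hypoxia levels were 28.1 and 29 FPKM in PPA2-hairpin libraries, against 20.8 and 19.4 FPKM in control libraries. Both PPA2-hairpin libraries were then above both control libraries, a rise of 0.49 ± 0.071 (adjusted p = 0.00121), and the response differed between oxygen levels by 0.58 (adjusted p = 0.00165). NFE2L2 shares 17.6% of its exon bases with AC019080.1 on the same strand, which stayed under 0.91 in every library.

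Glutathione synthesis starts with the uptake of cystine by SLC7A11, joins cysteine and glutamate by the ligase of GCLC (catalytic) and GCLM (modifier), and ends with GSS, while GSR returns oxidised glutathione to its reduced form. SLC7A11 (chromosome 4, 138164097 to 138242349, minus strand) had 3.17 and 3.28 RPKM in PPA2-hairpin libraries, against 6.63 and 6.57 RPKM in control libraries under normoxia. Hypoxia values were 4.54 and 4.30 FPKM in PPA2-hairpin libraries, against 5.23 and 6.2 FPKM in control libraries. The groups were apart at both oxygen levels, by more under normoxia. It fell by 0.85 ± 0.080 under normoxia (adjusted p = 0.00124) and by 0.31 ± 0.11 under hypoxia (adjusted p = 0.048), a difference of 0.54 (adjusted p = 0.009). GCLM (chromosome 1, 93885199 to 93909456, minus strand) had 12.9 and 13.4 RPKM in PPA2-hairpin libraries and 15.3 and 15.1 RPKM in control libraries under normoxia. Under hypoxia it had 8.24 and 8.82 FPKM in PPA2-hairpin libraries and 5.92 and 5.87 FPKM in control libraries. The order of the groups was thus opposite, without overlap in either table. Its fall of 0.19 ± 0.060 under normoxia was barely called (adjusted p = 0.0497), its rise of 0.47 ± 0.088 under hypoxia had an adjusted p of 0.00369, and the difference was 0.66 (adjusted p = 0.000664). The normoxia call of GCLM was lost without any 1 of the 4 libraries (adjusted p = 0.0578 to 0.263) with replicate number as a block (0.0609) and on the scale without mitochondrial genome genes (0.133).

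GCLC, GSS and GSR were lower in PPA2-hairpin libraries at both oxygen levels, with log2 fold changes of −0.28 to −0.155 that stayed below 0 on all 3 scales tried. GCLC had 24.0 and 24.8 RPKM in PPA2-hairpin libraries and 30.5 and 26.9 RPKM in control libraries, not called at an adjusted p of 0.0532, but called without control replicate 2 (0.0428) and with the replicate block (0.045). Under hypoxia GCLC had 14.3 and 15.1 FPKM in PPA2-hairpin libraries, against 16.8 and 18.4 FPKM in control libraries (−0.24 ± 0.079, adjusted p = 0.034). GSS had 43.4 and 41.0 RPKM in PPA2-hairpin libraries and 47.7 and 48.3 RPKM in control libraries under normoxia (−0.18 ± 0.054, adjusted p = 0.0409). Neither gene's groups overlapped. Under hypoxia GSS had 38.5 and 40.2 FPKM in PPA2-hairpin libraries and 50.6 and 45.7 FPKM in control libraries (−0.28 ± 0.074, adjusted p = 0.0146). GSR had 107 and 102 RPKM in PPA2-hairpin libraries, against 119.9 and 113 RPKM in control libraries (adjusted p = 0.0704, and 0.0496 with the replicate block), and under hypoxia 47.0 and 46.4 FPKM in PPA2-hairpin libraries, against 53.0 and 58.9 FPKM in control libraries (−0.25 ± 0.072, adjusted p = 0.0208). For SLC7A11, GCLC, GSS and GSR, the hypoxia call was lost without knockdown replicate 1 (adjusted p = 0.128, 0.215, 0.11 and 0.0976 in this order) or knockdown replicate 2 (0.214, 0.104, 0.0519 and 0.123), and on both other scales. Without control replicate 2 it was also lost for SLC7A11 (log2 fold change −0.20, adjusted p = 0.136) and GCLC (0.0801). Under normoxia, GSS was not called without knockdown replicate 2 (0.0804) or either control library (0.188 without replicate 1 and 0.227 without replicate 2), nor on the scale without mitochondrial genome genes (0.106).

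**Figure D3:**
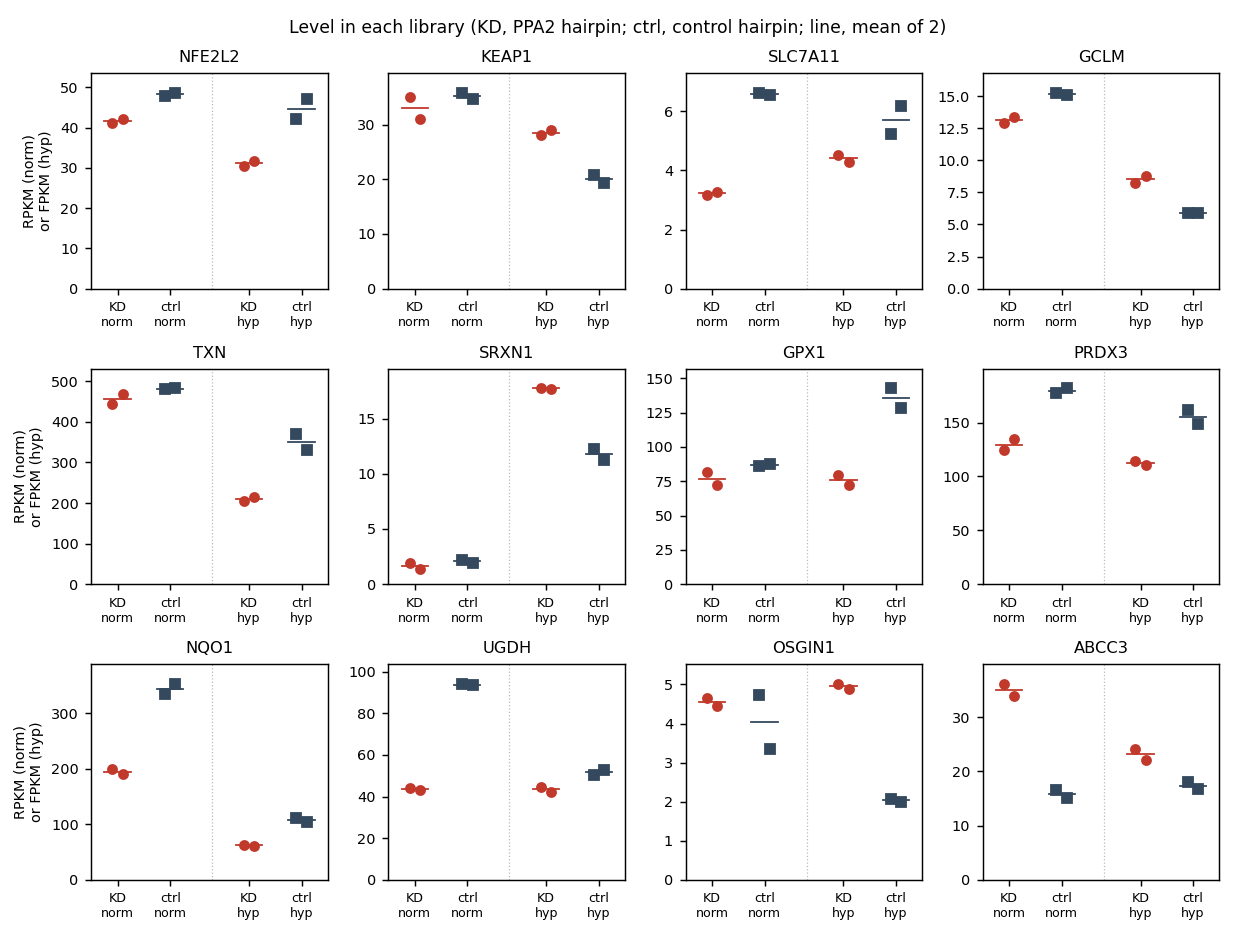
Level of 12 members in each library, RPKM under normoxia and FPKM under hypoxia, with red circles for the PPA2 hairpin (KD), dark squares for the control hairpin (ctrl) and a line at the mean of 2 libraries. The tables were normalized separately, so heights compare only within an oxygen level. GCLM, KEAP1 and SRXN1 stand higher in PPA2-hairpin libraries under hypoxia and not under normoxia.

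Of the thioredoxin system, TXN fell and TXNRD1 and SRXN1 rose under hypoxia, and the 3 were not called under normoxia (limma adjusted p = 0.248 to 0.288). TXN (chromosome 9, 110243810 to 110256507, minus strand), the protein disulfide reductant thioredoxin, had 444 and 469.9 RPKM in PPA2-hairpin libraries and 482 and 483 RPKM in control libraries under normoxia (adjusted p = 0.288). In the hypoxia table it had 206 and 214 FPKM in PPA2-hairpin libraries, against 371 and 331 FPKM in control libraries. Both PPA2-hairpin libraries were far below the control libraries there, 1.67-fold lower (−0.74 ± 0.077, adjusted p = 0.000302), and the response differed by −0.66 (adjusted p = 0.000494). TXNRD1, the selenoprotein that reduces thioredoxin with NADPH, had 126 and 135 RPKM in PPA2-hairpin libraries and 136 and 139.7 RPKM in control libraries under normoxia (adjusted p = 0.28). At low oxygen it had 103 and 99.9 FPKM in PPA2-hairpin libraries, against 83 and 89.3 FPKM in control libraries. The groups were close but apart, and the rise was 0.23 ± 0.066 (adjusted p = 0.0203), with a difference between oxygen levels of 0.31 (adjusted p = 0.0147). Its hypoxia call was lost without knockdown replicate 1 (0.176) or 2 (0.112), and the difference without control replicate 2 under normoxia (0.0625) or knockdown replicate 1 under hypoxia (0.0597).

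SRXN1 (chromosome 20, 646615 to 653200, minus strand), the sulfiredoxin that restores over-oxidised peroxiredoxins, had 1.89 and 1.38 RPKM in PPA2-hairpin libraries and 2.16 and 1.96 RPKM in control libraries under normoxia (adjusted p = 0.248). Its hypoxia levels were 17.7 and 17.7 FPKM in PPA2-hairpin libraries, against 12.3 and 11.3 FPKM in control libraries. The PPA2-hairpin libraries were alike and 1.47-fold higher (0.55 ± 0.078, adjusted p = 0.00104), and the response differed by 0.78 (adjusted p = 0.00254). In GENCODE 29, SRXN1 shares 85.0% of its exon bases with AL121758.1 on the same strand. That gene had at most 0.0526 RPKM in the normoxia table and was listed at 0 in the hypoxia table, and the sources used here do not give how shared reads were assigned. The level of SRXN1 and its difference between the tables are therefore uncertain.

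NADPH for both systems comes from the pentose phosphate pathway, in which PGD makes it and TALDO1 and TKT recycle sugars, and from malic enzyme, ME1. All 4 genes were lower in PPA2-hairpin libraries at both oxygen levels, without overlap, and their log2 fold changes were below 0 on all 3 scales tried. PGD (chromosome 1, 10398592 to 10420511, plus strand) had 142 and 138 RPKM in PPA2-hairpin libraries, against 173 and 176 RPKM in control libraries under normoxia (−0.32 ± 0.048, adjusted p = 0.00452). Under hypoxia PGD had 100.5 and 101 FPKM in PPA2-hairpin libraries, against 129.6 and 114 FPKM in control libraries (−0.27 ± 0.076, adjusted p = 0.0187). The spread was wider among control libraries under hypoxia. TKT had 147 and 137 RPKM in PPA2-hairpin libraries and 182 and 173 RPKM in control libraries under normoxia (−0.32 ± 0.056, adjusted p = 0.00756), and under hypoxia 85.7 and 86.3 FPKM in PPA2-hairpin libraries, against 113 and 109.8 FPKM in control libraries (−0.37 ± 0.059, adjusted p = 0.00193). TALDO1 had 220.4 and 207 RPKM in PPA2-hairpin libraries and 257 and 262 RPKM in control libraries under normoxia (−0.28 ± 0.053, adjusted p = 0.00971), and under hypoxia 190.4 and 169 FPKM in PPA2-hairpin libraries, against 214 and 199.9 FPKM in control libraries (adjusted p = 0.0626, and 0.0279 in the fit of all libraries). TKT was called in both tables and TALDO1 in the normoxia table. ME1 had 48.3 and 50.7 RPKM in PPA2-hairpin libraries and 55.4 and 53.4 RPKM in control libraries (adjusted p = 0.0965), and under hypoxia 29.3 and 28.2 FPKM in PPA2-hairpin libraries, against 36.9 and 37.2 FPKM in control libraries (−0.35 ± 0.065, adjusted p = 0.00324). The responses of the 4 were not called as different between oxygen levels (differences of −0.22 to 0.08, limma adjusted p = 0.0532 to 0.698). The hypoxia call of PGD was lost without knockdown replicate 1 (0.106) or 2 (0.101) and on both other scales, that of ME1 on the scale without mitochondrial genome genes (0.0825), and the normoxia call of TALDO1 without control replicate 2 (0.0557).

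Among the glutathione peroxidases, GPX1 and GPX4 were lower in PPA2-hairpin cells, by more under hypoxia in GPX1. GPX1 (chromosome 3, 49357176 to 49358358, minus strand; a polymorphic pseudogene in the deposited annotation), the cytosolic enzyme, had 81.8 and 72.2 RPKM in PPA2-hairpin libraries and 86.4 and 87.2 RPKM in control libraries under normoxia (adjusted p = 0.091, and 0.0158 without knockdown replicate 1). Hypoxia values were 79.4 and 72.2 FPKM in PPA2-hairpin libraries, against 143 and 128 FPKM in control libraries. No PPA2-hairpin library came near the control libraries, and the gene fell 1.78-fold (−0.83 ± 0.081, adjusted p = 0.000237), with a difference between oxygen levels of −0.66 (adjusted p = 0.00135). GPX4 (chromosome 19, 1103926 to 1106791, plus strand), which reduces lipid peroxides in membranes, had 162 and 162 RPKM in PPA2-hairpin libraries, against 208 and 191 RPKM in control libraries (−0.30 ± 0.058, adjusted p = 0.0108). Under hypoxia it had 182 and 180.1 FPKM in PPA2-hairpin libraries, against 272 and 241 FPKM in control libraries (−0.50 ± 0.076, adjusted p = 0.00148). The PPA2-hairpin libraries were close to each other and lay below both control libraries each time. The difference between the responses of GPX4 was not called (adjusted p = 0.125, and 0.0232 without control replicate 2 under hypoxia), and its normoxia call was lost without control replicate 1 (0.0836). GPX2, the gastrointestinal enzyme, was under the test limit with 0.418 and 0.162 RPKM in PPA2-hairpin libraries and 0.711 and 0.668 RPKM in control libraries, and under hypoxia 0.886 and 0.838 FPKM in PPA2-hairpin libraries, against 0.133 and 0.436 FPKM in control libraries.

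The peroxiredoxins reduce peroxides with electrons from thioredoxin, or from glutathione for PRDX6, and PRDX1 was the member with the highest level per length in all 4 groups. PRDX3 (chromosome 10, 119167720 to 119178812, minus strand), the mitochondrial peroxiredoxin, had 124 and 135 RPKM in PPA2-hairpin libraries, against 178 and 182 RPKM in control libraries under normoxia. In the hypoxia table it had 114 and 110.3 FPKM in PPA2-hairpin libraries, against 161 and 149 FPKM in control libraries. The groups were clear of each other in both tables, with a fall of 0.47 ± 0.057 (adjusted p = 0.00246) and of 0.46 ± 0.068 (adjusted p = 0.00124), and a difference of 0.01 ± 0.090 (adjusted p = 0.956). PRDX5, found in mitochondria, peroxisomes and cytosol, had 308 and 274 RPKM in PPA2-hairpin libraries, against 368 and 371 RPKM in control libraries (−0.35 ± 0.067, adjusted p = 0.0101), and under hypoxia 219 and 214 FPKM in PPA2-hairpin libraries, against 276 and 242 FPKM in control libraries (−0.25 ± 0.078, adjusted p = 0.0291). Cytosolic PRDX2 had 235 and 211 RPKM in PPA2-hairpin libraries and 244 and 229.7 RPKM in control libraries, with overlap, and under hypoxia 255 and 265 FPKM in PPA2-hairpin libraries, against 236 and 215 FPKM in control libraries (0.20 ± 0.071, adjusted p = 0.044; difference 0.29, adjusted p = 0.0418). Both of these hypoxia calls were lost without knockdown replicate 1 (PRDX5 0.144, PRDX2 0.191) or 2 (0.198 and 0.322), PRDX5's on both other scales and PRDX2's with the replicate block (0.0629). The difference of PRDX2 was lost when any control library or knockdown replicate 2 was left out under normoxia, or control replicate 2 or either knockdown replicate under hypoxia (0.0619 to 0.149). PRDX2 shares 14.1% of its exon bases with the antisense gene AC018761.2, at 0 to 0.33 RPKM under normoxia and 5.38 to 6.07 FPKM under hypoxia, and without a stated strand setting its level is uncertain.

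PRDX1, PRDX4 and PRDX6 were called in neither table as deposited. PRDX1 had 461 and 469 RPKM in PPA2-hairpin libraries and 481 and 516 RPKM in control libraries, and under hypoxia 521 and 544 FPKM in PPA2-hairpin libraries, against 623 and 580.5 FPKM in control libraries (log2 −0.18, adjusted p = 0.0717, 0.0108 without control replicate 2 and 0.0313 in the fit of all libraries). PRDX4, the peroxiredoxin of the endoplasmic reticulum, had 78.8 and 78.1 RPKM in PPA2-hairpin libraries and 83.3 and 86.2 RPKM in control libraries, and under hypoxia 47.2 and 47.4 FPKM in PPA2-hairpin libraries, against 48.0 and 43.0 FPKM in control libraries, where the groups overlapped. Its responses differed by 0.17 (adjusted p = 0.161, and 0.0263 without control replicate 1 under hypoxia). That difference was called without mitochondrial genome genes (0.30, adjusted p = 0.0185) and with median-of-ratios scaling (0.31, 0.0293). The hypoxia response of PRDX4 was 0.06 as deposited and a called 0.25 without mitochondrial genome genes (0.0206), and its normoxia response was called with median-of-ratios scaling (−0.19, 0.0306). PRDX6 had 179 and 196 RPKM in PPA2-hairpin libraries and 181 and 181 RPKM in control libraries, and under hypoxia 119 and 116 FPKM in PPA2-hairpin libraries, against 129 and 119 FPKM in control libraries (adjusted p = 0.322, and 0.0461 without control replicate 2). These p-values do not show that the groups were alike.

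The superoxide dismutases fell under hypoxia, and neither they nor catalase were called under normoxia (limma adjusted p = 0.0636 to 0.636). SOD1 (chromosome 21, 31659666 to 31668931, plus strand), the cytosolic copper and zinc enzyme, had 243 and 246 RPKM in PPA2-hairpin libraries and 278 and 265 RPKM in control libraries under normoxia (adjusted p = 0.0636). At low oxygen it had 161 and 166 FPKM in PPA2-hairpin libraries, against 245 and 209.9 FPKM in control libraries (−0.47 ± 0.085, adjusted p = 0.00312). The PPA2-hairpin libraries were the lower ones in both tables, and the difference of −0.32 (adjusted p = 0.0312) was lost on both other scales (0.148 and 0.246) and without either library of any group except the hypoxia controls (0.0579 to 0.112). SOD2 (chromosome 6, 159669069 to 159762529, minus strand), the mitochondrial manganese enzyme, had 62.7 and 63.7 RPKM in PPA2-hairpin libraries and 67.1 and 62.7 RPKM in control libraries, and under hypoxia 17.6 and 20.5 FPKM in PPA2-hairpin libraries, against 23.9 and 36.1 FPKM in control libraries. The hypoxia controls were far apart from each other. Its fall of 0.60 ± 0.18 (adjusted p = 0.0234) became −0.31 without control replicate 2 (adjusted p = 0.0587) and was lost on the scale without mitochondrial genome genes (0.118). Its difference between oxygen levels, −0.57 (adjusted p = 0.0553), was called without control replicate 1 under hypoxia (0.00105) and with the replicate block (0.0101). GENCODE 29 lists another, overlapping gene under the symbol SOD2, so its level is uncertain. CAT, catalase, had 31.2 and 30.6 RPKM in PPA2-hairpin libraries and 34.2 and 34.0 RPKM in control libraries under normoxia (adjusted p = 0.0781). Its hypoxia levels were 47.2 and 46.5 FPKM in PPA2-hairpin libraries, against 41.1 and 42.6 FPKM in control libraries (0.16 ± 0.063, adjusted p = 0.065). This response was called without control replicate 2 (0.0323), in the fit of all libraries (0.0297), without mitochondrial genome genes (0.35, adjusted p = 0.00573) and with median-of-ratios scaling (0.23, 0.0185). It was lower in PPA2-hairpin libraries in the normoxia table and higher in the hypoxia table, and the difference of 0.30 was called (adjusted p = 0.0125, and 0.0542 without control replicate 1 under normoxia).

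Of the detoxification enzymes, NQO1 and UGDH fell at both oxygen levels and OSGIN1, AKR1C3 and EPHX1 rose under hypoxia. NQO1 (chromosome 16, 69706996 to 69726668, minus strand), the quinone reductase often used as a readout of NRF2, had 199 and 191 RPKM in PPA2-hairpin libraries, against 334 and 353 RPKM in control libraries under normoxia. Hypoxia values were 62.7 and 61.5 FPKM in PPA2-hairpin libraries, against 112 and 104 FPKM in control libraries. The groups were far apart in both tables. The fall was 1.76-fold under normoxia (−0.81 ± 0.054, adjusted p = 0.000441) and 1.73-fold under hypoxia (−0.79 ± 0.066, adjusted p = 0.000144), with a difference of 0.03 ± 0.085 (adjusted p = 0.814). UGDH (chromosome 4, 39498755 to 39528311, minus strand), which makes UDP-glucuronic acid for glucuronidation, had 43.9 and 43.3 RPKM in PPA2-hairpin libraries, against 94.2 and 93.6 RPKM in control libraries under normoxia. Under hypoxia it had 44.8 and 42.4 FPKM in PPA2-hairpin libraries, against 50.4 and 52.8 FPKM in control libraries. Its fall was 2.13-fold under normoxia (−1.09 ± 0.048, adjusted p = 0.00017) and smaller under hypoxia (−0.24 ± 0.066, adjusted p = 0.0187), and the difference of 0.85 had an adjusted p of 5.6e-05. The hypoxia call of UGDH was lost without knockdown replicate 1 (0.0721) or 2 (0.188) and on both other scales, while its normoxia call held in every alternative. NQO1 shares 17.7% of its exon bases with the antisense gene AC092115.2, which had at most 0.0238 in any library.

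OSGIN1 (chromosome 16, 83931311 to 83966332, plus strand), an oxidative stress induced growth inhibitor, had 4.65 and 4.45 RPKM in PPA2-hairpin libraries and 4.73 and 3.33 RPKM in control libraries under normoxia, with overlap (adjusted p = 0.423). In the hypoxia table it had 5.02 and 4.88 FPKM in PPA2-hairpin libraries, against 2.08 and 2.0 FPKM in control libraries. The libraries of each group were close to each other and far from the other group, a 1.96-fold rise (0.97 ± 0.11, adjusted p = 0.000372) that differed from normoxia by 0.81 (adjusted p = 0.00506). AKR1C3 (chromosome 10, 5035354 to 5107686, plus strand), an aldo-keto reductase of steroids and prostaglandins, had 2.69 and 4.0 RPKM in PPA2-hairpin libraries and 4.42 and 4.55 RPKM in control libraries (adjusted p = 0.111, and 0.0209 without knockdown replicate 2). At low oxygen it had 5.01 and 5.09 FPKM in PPA2-hairpin libraries, against 3.24 and 2.91 FPKM in control libraries (0.57 ± 0.10, adjusted p = 0.00329). The PPA2-hairpin libraries were below the control libraries under normoxia and above them under hypoxia, and the difference of 0.92 (adjusted p = 0.00359) was the largest among the members. Its relatives AKR1C1 and AKR1C2, which are similar in sequence, were at most 0.439 in any library. EPHX1, the microsomal epoxide hydrolase, had 77.8 and 67.7 RPKM in PPA2-hairpin libraries and 77.1 and 75.6 RPKM in control libraries, with overlap (adjusted p = 0.476, and 0.0446 without knockdown replicate 1). Its hypoxia levels were 72.8 and 74.1 FPKM in PPA2-hairpin libraries, against 58.8 and 54.2 FPKM in control libraries (0.37 ± 0.067, adjusted p = 0.00304; difference 0.45, adjusted p = 0.0069). MGST1, a membrane glutathione transferase, had 59.4 and 56.7 RPKM in PPA2-hairpin libraries and 51.6 and 52.6 RPKM in control libraries (adjusted p = 0.0607, and 0.0432 without knockdown replicate 2), and under hypoxia 33.8 and 38.4 FPKM in PPA2-hairpin libraries, against 40.5 and 37.7 FPKM in control libraries, with overlap (adjusted p = 0.269). Its responses differed by −0.27 (adjusted p = 0.057), called without control replicate 2 (0.039) or knockdown replicate 2 (0.0284) under hypoxia.

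The other aldo-keto reductases were scarcely detected. AKR1B10 had 0.138 and 0.121 RPKM in PPA2-hairpin libraries and 0.287 and 0.761 RPKM in control libraries under normoxia, and under hypoxia it was listed at 0 in both PPA2-hairpin libraries, against 0.160 and 0.284 FPKM in control libraries. AKR1C1 ranged over 0.0757 to 0.116 in PPA2-hairpin libraries and 0.0965 to 0.439 in control libraries, and AKR1C2 over 0 to 0.231 in PPA2-hairpin libraries and 0.0171 to 0.135 in control libraries, over both tables. With GPX2 and ABCC2 they are the 5 members that were not tested.

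The efflux pumps of the ABCC family export glutathione conjugates and other organic anions, and they did not move together. ABCC3 (chromosome 17, 50634777 to 50692253, plus strand) had 36.2 and 33.9 RPKM in PPA2-hairpin libraries, against 16.6 and 15.1 RPKM in control libraries under normoxia. Hypoxia values were 24.2 and 22.1 FPKM in PPA2-hairpin libraries, against 18.0 and 16.8 FPKM in control libraries. Every PPA2-hairpin library was above every control library of its table. The rise was 2.14-fold under normoxia (1.1 ± 0.069, adjusted p = 0.000409) and 1.31-fold under hypoxia (0.39 ± 0.079, adjusted p = 0.00497), and it was smaller under hypoxia by 0.70 (difference −0.70, adjusted p = 0.000747). ABCC1 had 19.2 and 18.6 RPKM in PPA2-hairpin libraries and 18.9 and 19.2 RPKM in control libraries, and under hypoxia 20.8 and 20.7 FPKM in PPA2-hairpin libraries, against 19.5 and 23.9 FPKM in control libraries. Its groups overlapped in both tables (adjusted p = 0.88 and 0.668, and 0.0422 under hypoxia without control replicate 1). ABCC2 had 0.549 and 0.300 RPKM in PPA2-hairpin libraries and 0.947 and 0.888 RPKM in control libraries, and under hypoxia 0.467 and 0.299 FPKM in PPA2-hairpin libraries, against 0.854 and 0.914 FPKM in control libraries, lower in PPA2-hairpin libraries in both tables without overlap.

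**Figure D4:**
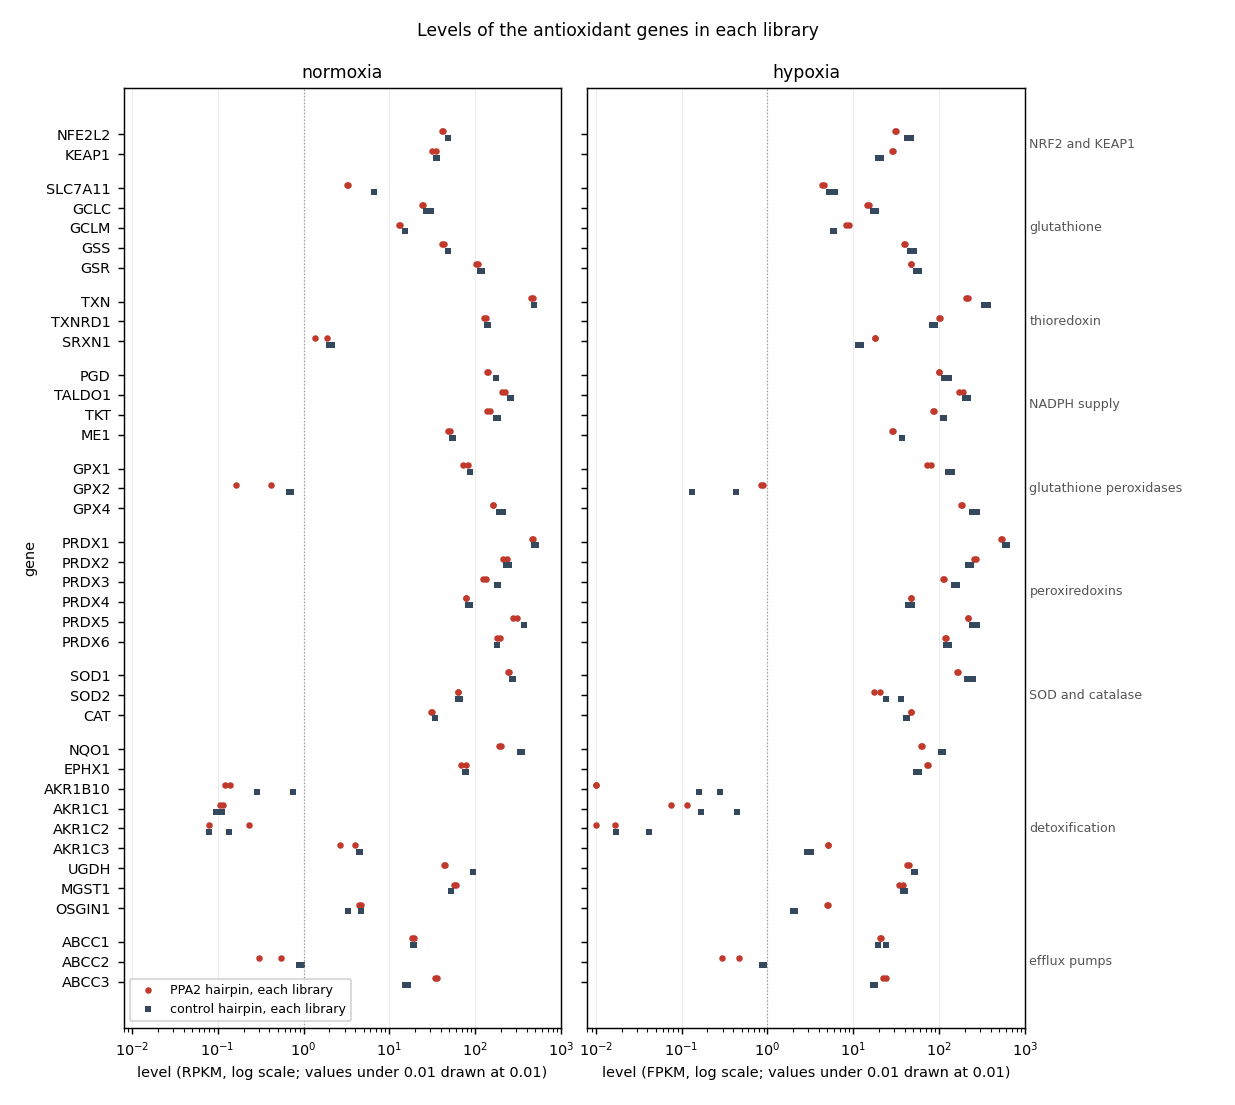
Level of all 38 members in each library on a log scale, RPKM under normoxia (left) and FPKM under hypoxia (right), with red circles for the PPA2 hairpin and dark squares for the control hairpin. The dotted line marks a level of 1, and 5 members lie under it: GPX2, AKR1B10, AKR1C1, AKR1C2 and ABCC2.

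Between the oxygen levels, the values can only be described, since each table was normalized on its own. Of the 38 members, 27 had a lower mean in the hypoxia table than in the normoxia table in PPA2-hairpin cells and 29 in control cells, with a median log2 difference of −0.20 in PPA2-hairpin cells and −0.41 in control cells. The summed values of all genes were also lower in the hypoxia table, 380990 and 381354 against 483864 and 474231 in PPA2-hairpin libraries. In control libraries they were 424998 and 405999 against 493695 and 492167. The same count over all genes was not taken, so these values do not set the members apart from other genes. NQO1 (−1.64 in PPA2-hairpin cells and −1.66 in control cells) and SOD2 (−1.68 in PPA2-hairpin cells and −1.12 in control cells) were among the lowest. SRXN1 was highest, by 2.83 in PPA2-hairpin cells and 2.06 in control cells. These median differences moved to 0.0022 in PPA2-hairpin cells and −0.25 in control cells on the scale without mitochondrial genome genes.

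Other genes of the pathway were followed in 4 lists of 77 genes in all. Whether their calls hold on the other scales or without each library was not tested. Of 69 tested under normoxia, 10 rose (14.5%) and 18 fell (26.1%), beside 22.5% and 11.7% of all tested genes. Of 70 tested under hypoxia, 15 rose (21.4%) and 27 fell (38.6%), beside 24.6% and 33.8% of all tested genes. In all 40.6% and 60.0% were called, beside 34.2% and 58.4% of all tested genes. Among partners and regulators of NRF2, 1 of 11 rose and 4 fell under normoxia (45.5% called), led by the small MAF genes MAFF (−0.41, adjusted p = 0.00773) and MAFG (−0.36, 0.00751), with DPP3 (−0.28) and SQSTM1 (−0.23). Under hypoxia 3 rose and 3 fell (54.5% called). CUL3, the ubiquitin ligase scaffold that works with KEAP1, had 20.1 and 23.0 FPKM in PPA2-hairpin libraries, against 10.4 and 11.1 FPKM in control libraries (0.94, adjusted p = 0.000226). NFE2L1 (0.77), a relative of NRF2, and BACH1 (0.48), a repressor at the same elements, also rose, and MAFF fell (−0.27, adjusted p = 0.0399).

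Of 19 other tested NRF2 targets, 5 rose and 7 fell under normoxia, and 6 rose and 5 fell under hypoxia. The shares called were 63.2% and 57.9%, beside 34.2% and 58.4% of all tested genes. HMOX1, haem oxygenase, had 14.9 and 12.6 RPKM in PPA2-hairpin libraries and 11.3 and 9.82 RPKM in control libraries under normoxia, and under hypoxia 56.2 and 54.1 FPKM in PPA2-hairpin libraries, against 5.63 and 4.91 FPKM in control libraries. All PPA2-hairpin libraries were higher, 8.97-fold under hypoxia (3.17 ± 0.084, adjusted p = 4.6e-06). Under normoxia FTL (−0.63) and IDH1 (−0.59) fell and the efflux pump ABCG2 rose (0.81), and under hypoxia UGT1A6 rose (1.28) and FECH fell (−0.78).

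Of 38 other genes of glutathione and thioredoxin metabolism, 33 were tested under normoxia, where 3 rose and 7 fell, and 34 under hypoxia, where 5 rose and 17 fell. The shares called were 30.3% and 64.7%, beside 34.2% and 58.4% of all tested genes. TXNIP, which binds and inhibits thioredoxin, had 41.6 and 43.3 RPKM in PPA2-hairpin libraries, against 8.04 and 8.62 RPKM in control libraries, and under hypoxia 40.7 and 41.0 FPKM in PPA2-hairpin libraries, against 1.65 and 1.70 FPKM in control libraries. It was 4.66-fold and 15.7-fold higher (adjusted p = 3.99e-05 and 1.44e-06). SLC3A2, the heavy chain that pairs with SLC7A11 in the cystine transporter, had 119 and 114 RPKM in PPA2-hairpin libraries, against 163 and 156 RPKM in control libraries (−0.45, adjusted p = 0.00198). Under hypoxia it had 93.1 and 89.4 FPKM in PPA2-hairpin libraries, against 209 and 209 FPKM in control libraries (−1.19, adjusted p = 3.25e-05). The RNA of both chains of the transporter was thus lower in both tables, though the hypoxia call of SLC7A11 was lost on both other scales. DPEP1 (−1.15) and CHAC1 (−0.76), of the pathway that breaks glutathione down, fell under normoxia. The glutaredoxin GLRX3 (−1.15) and the transferase GSTM4 (−1.27) fell under hypoxia. DPEP1 was also called lower under hypoxia (−0.92, limma adjusted p = 0.000516) and GSTM4 under normoxia (−0.43, 0.0112). Of the 6 genes that make selenoproteins, the class of TXNRD1, GPX1 and GPX4, TRNAU1AP rose under normoxia (0.27), and under hypoxia SEPSECS (−0.56) and EEFSEC (−0.47) fell and SECISBP2 rose (0.46). That is 16.7% and 50% of the 6.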

How the data were processed

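RNA of 8 DLD1 libraries was measured (4 groups of 2). Per the labels' protocols, total RNA was extracted with Trizol, treated with DNase, selected for polyadenylated RNA and made into directional libraries. The submitters' processing notes name cutadapt 1.18, Trimmomatic 0.35, FastQC, HISAT2 2.1.0 and the build GRCh38. The counting tool was not given in the sources used here, nor were its strand setting and annotation. The normoxia table holds RPKM and the hypoxia table FPKM, per the file headers, each as deposited by the authors. Columns of 4 samples outside this series were not used. Depth is known only for the normoxia libraries, where 89.7% to 90.5% of low values of single-exon genes (up to 20 reads) lay within 0.02 of a whole read, and only 15.3% to 15.8% did under hypoxia, so no count test was run.

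Groups followed the labels. Log2(value + 1) was fitted with limma 3.58.1 (R 4.3.3, eBayes with a mean-variance trend) over all genes with a mean of at least 1, within each table for the knockdown and over all 8 libraries for the interaction, with Benjamini-Hochberg adjustment over all genes tested and calls at 0.05. Fold changes are on that scale and understate those of low genes. The fit was run on simulated data with planted changes larger than that of any member. How well it finds changes as small as those called here was not tested. Tables and sequences were handled with Python 3.11.15, pandas 2.3.3 and numpy 2.4.6. The alternatives were a pseudocount of 0.1, no filter, a mean of at least 5, both rescalings, a replicate block, no trend, robust eBayes, leaving out each library, and 1 fit of all libraries. Single genes followed through them were the members and PPA2, not the genes of the other lists. All 38 members are named, and of the other lists up to 4 called genes per list and comparison by size of change. A gene that this rule names is not reported here. Members and lists were chosen with earlier results of these data known. Coordinates are those of the deposited annotation for 37 members.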

Additional observations from a re-analysis of the deposited data

Results flagged for a closer look

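For 16 members the response to the PPA2 hairpin differed between hypoxia and normoxia by the interaction term (limma adjusted p under 0.05), with the values below as hypoxia response minus normoxia response on the log2 scale. The tables were normalized separately, and each response was taken within its table. Oxygen level and table cannot be told apart in these differences.

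Above 0 were AKR1C3 (0.92), UGDH (0.85), OSGIN1 (0.81), SRXN1 (0.78), GCLM (0.66), KEAP1 (0.58), SLC7A11 (0.54), EPHX1 (0.45), TXNRD1 (0.31), CAT (0.30) and PRDX2 (0.29). UGDH and SLC7A11 are in this set because their fall was smaller under hypoxia. KEAP1, TXNRD1, SRXN1, EPHX1, AKR1C3, OSGIN1 and PRDX2 rose under hypoxia without a call under normoxia. Their uncalled normoxia values, from −0.35 (AKR1C3) to 0.15 (OSGIN1), also enter the difference. GCLM fell under normoxia and rose under hypoxia, and CAT was called in neither table. Below 0 were ABCC3 (−0.70), TXN (−0.66), GPX1 (−0.66), SOD1 (−0.32) and NFE2L2 (−0.30). ABCC3 is in this set because its rise was smaller under hypoxia, and NFE2L2 because its fall was deeper there. TXN, GPX1 and SOD1 fell under hypoxia without a call under normoxia. The level of PPA2 in PPA2-hairpin libraries also differed between the tables, and its part in these differences was not tested.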

How the results depend on the processing

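The filter on a mean of at least 5 tested only 29 members under normoxia, 31 under hypoxia and 30 in the interaction. Called members that it left out were SLC7A11 under normoxia, AKR1C3 and OSGIN1 under hypoxia, and all of these in the interaction. No called member changed sign in any alternative that tested it. Of the 13 normoxia calls among the members 7 held in every alternative that tested them, of the 26 hypoxia calls 15, and of the 16 interaction calls 11. These counts include the calls that the filter left untested. Without a filter, all genes that rose numbered 1572 and those that fell 777 under normoxia (3165 and 1653 with it), and members that fell 6 under normoxia (12 with it) and 9 under hypoxia (17 with it). Calls lost without a filter were NFE2L2, GCLM, GSS, TALDO1, GPX4 and PRDX5 under normoxia and SLC7A11, GCLC, GSS, GSR, TXNRD1, PGD, PRDX2, PRDX5, SOD2 and UGDH under hypoxia, and NFE2L2, PRDX2 and SOD1 in the interaction. Without mitochondrial genome genes, 2 members rose under normoxia and 8 fell under hypoxia, 4956 genes rose under hypoxia (3219 as deposited), and under hypoxia the median of members was −0.049 and of all genes 0.13 (−0.24 and −0.06 as deposited). With median-of-ratios scaling 19 members fell under normoxia (median −0.23) and 10 under hypoxia. For the interaction, 3 members were below 0 without a filter, without a trend and on both scales, and 8 with a mean of at least 5. On the scale without mitochondrial genome genes and with median-of-ratios the interaction medians were 0.14 and 0.15 for members (0.01 as deposited) and −0.014 and −0.0045 for all genes (−0.13 as deposited), −0.025 for all genes without a filter, and 2765 genes were above 0 with median-of-ratios (1815 as deposited). Median level differences between the tables moved to 0.0022 in PPA2-hairpin cells and −0.25 in control cells without mitochondrial genome genes. The cause of these moves beyond the rescaling or the number of genes tested was not tested.

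Values that changed sign belonged to members that were not called. Under normoxia these were PRDX6 (−0.028, median-of-ratios), SOD2 (0.017) and ABCC1 (0.040) without mitochondrial genome genes. Under hypoxia without mitochondrial genome genes they were PRDX1 (0.019), PRDX6 (0.11), MGST1 (0.076) and ABCC1 (0.14, and 0.015 with median-of-ratios). For the interaction, without mitochondrial genome genes and with median-of-ratios, they were GCLC (0.11 and 0.12), GSS (0.033 and 0.041), GSR (0.036 and 0.045), TKT (0.090 and 0.099), PRDX1 (0.061 and 0.068), PRDX6 (0.005 and 0.0125) and ABCC1 (0.093 and 0.097).

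Without each library in turn, 2073 to 2737 genes rose and 954 to 1766 fell under normoxia, 1 to 2 members rose under normoxia, 10 to 18 members fell under hypoxia and 3 to 7 were below 0 in the interaction. Ranges that crossed 0 under normoxia were −0.019 to 0.12 for PRDX6, −0.084 to 0.012 for SOD2, −0.17 to 0.027 for EPHX1, −0.047 to 0.36 for OSGIN1 and −0.037 to 0.011 for ABCC1. Under hypoxia they were −0.021 to 0.13 for PRDX4 and −0.20 to 0.088 for ABCC1. In the interaction they were −0.10 to 0.068 for GCLC, −0.041 to 0.14 for PGD, −0.0072 to 0.16 for TALDO1, −0.094 to 0.0026 for TKT, −0.052 to 0.067 for PRDX3, −0.026 to 0.082 for NQO1 and −0.18 to 0.10 for ABCC1.

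Libraries with the same replicate number did not deviate together (correlation 0.04 under normoxia and −0.015 under hypoxia), so the numbers were not taken as a pairing. With the replicate block, the calls of GCLM under normoxia (adjusted p = 0.0609) and of SLC7A11 (0.05) and PRDX2 (0.0629) under hypoxia were lost. GCLC (0.045) and GSR (0.0496) under normoxia and SOD2 in the interaction (0.0101) were gained. No other call of a member changed with the block. With 2 libraries a group and unknown depth under hypoxia, the precision of small differences is limited.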

Other observations

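Among other genes of the pathway, HMOX1 and TXNIP responded more to the PPA2 hairpin under hypoxia than under normoxia, and so did CUL3, the scaffold that works with KEAP1. The response of HMOX1 was higher under hypoxia by 2.81 (adjusted p = 2.09e-06), that of TXNIP by 1.75 (3.54e-06), that of the glucuronosyltransferase UGT1A6 by 1.04 (0.000235) and that of the transferase GSTA4 by 1.02 (0.0052), all by limma's interaction term. CUL3 (0.71), NFE2L1 (0.70), BACH1 (0.53) and MAFG (0.44) among regulators and FTL (0.80) and PIR (0.75) among targets also had differences above 0. GLRX3 (−1.02) and CHAC2 (−0.88), with SEPSECS (−0.63) and TRNAU1AP (−0.36) of the genes that make selenoproteins, had differences below 0, and SECISBP2 above it (0.44).

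GLRX3 had 44.7 and 45.2 RPKM in PPA2-hairpin libraries and 48.6 and 50 RPKM in control libraries under normoxia. Under hypoxia it had 28.0 and 30.3 FPKM in PPA2-hairpin libraries, against 68.0 and 64.0 FPKM in control libraries. Over the 77 genes of these lists, 18 of 70 tested were above 0 and 18 below 0, 51.4% in all, beside 42.4% of all tested genes. For these genes too, oxygen level and table cannot be told apart.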
